A study of Rattus norvegicus with 6 samples.

Results

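High glucose was compared with untreated culture in H9C2, a rat myoblast line of embryonic heart origin, by RNA sequencing of 4 of the 6 libraries of the series. All libraries came from the same line grown in DMEM with 1 g/L glucose. The 2 Ctrl libraries were from untreated cells, and the 2 HG libraries from cells given 33 mM glucose for 8 h. The remaining 2 libraries, siFGFR1+HG, came from cells that received FGFR1 siRNA before the same glucose dose. They entered the scaling and the statistical fit to help estimate the spread between libraries, and they counted in the filter on genes. Members of the comparison were the genes with at least 1 FPKM (fragments per kilobase of gene, scaled to library size) in at least 2 of the 6 libraries, which left 12229 of the 32623 genes in the table. The labels describe no osmotic control, so glucose cannot be told apart from added osmolarity or handling. Whether the libraries within a group were grown separately is not stated, so p-values measure the spread between these libraries, which may be technical.

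High glucose is known in heart and vessel cells for activating NF-kB, a family of dimeric transcription factors held in the cytoplasm by IkB proteins. Its targets include chemokines, adhesion molecules and the IkB genes themselves, so the pathway induces its own inhibitors. Glucose is also sensed by the MondoA and ChREBP factors, whose best known target is Txnip, and lipid synthesis is set by the SREBP factors, which are released from the endoplasmic reticulum when sterols are low.

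Total counts were 54149827 and 75021470 in Ctrl and 57813848 and 52488681 in HG, and mitochondrial transcripts made up 4.87% to 5.31% of counts in the 6 libraries. The cells carried skeletal myoblast transcripts: Myod1, a master factor of the muscle lineage, was at 64.0 and 66.3 FPKM in Ctrl and 67.4 and 64.8 in HG and was not called. Of the 12 skeletal myoblast markers 9 were tested, 4 fell (Des, Cdh15, Musk and Cav3) and 1 rose (Itga7), with a median log2 difference of -0.26. They summed to 339 and 343 FPKM in Ctrl and 316 and 314 in HG, with Myf5 at 0 and Pax7 at no more than 3 counts in any library, and 1 fall was left without Ctrl 2 or HG 2. Of 12 cardiomyocyte markers 3 passed the filter, Tnnt2 at 123 to 129 FPKM and the factor genes Nkx2-5 and Gata4, with 0 called. Among the others Myh6, Myh7, Tnni3, Actn2, Mybpc3 and Nppa had at most 34 counts in any Ctrl or HG library and Ryr2 had 0. Actc1 had 33 to 83 counts and Pln 78 to 122 in these libraries, also under the filter. Most of the listed cardiac genes were thus low, apart from Tnnt2, Nkx2-5 and Gata4. Of 12 macrophage markers 3 were tested and Ptprc was at 0 in all 4 libraries. Their summed level was 11.2 and 12.0 FPKM in Ctrl and 14.3 and 11.2 in HG. The 11 endothelial markers summed to 16.6 to 19.0 FPKM in Ctrl and 18.9 to 20.2 in HG, with Cdh5 at 0. In such bulk samples fewer cells of a type and less RNA per cell cannot be told apart.

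Chemokine and NF-kB feedback genes were the most strongly raised groups, and sterol, fatty acid, cell division and actin cytoskeleton genes were lower. Of the 12229 genes, 1670 (13.7%) were called at an adjusted p under 0.05 in the quasi-likelihood test of edgeR (Benjamini-Hochberg). Higher levels in HG were called for 710 genes (5.81%) and lower levels for 960 (7.85%), and these shares are the background for every list below. Limma on log2(FPKM + 1) called 688 higher and 506 lower, so that test gave no excess of falls. Most differences were small: 66 called genes differed at least 2-fold, 45 higher and 21 lower. Some of the 45, such as Nfkbiz, Hsd11b1 and Angptl4, passed the filter only through the glucose-treated libraries, so the split depends in part on the filter. The median absolute log2 difference over genes was 0.14 between group means, against 0.08 between the 2 Ctrl libraries and 0.09 between the 2 HG libraries. Groups that did not overlap were common with 2 libraries each. Both HG libraries lay above both Ctrl libraries in 3586 of the 12229 genes and below both in 3666. Leaving out Ctrl 1, Ctrl 2, HG 1 or HG 2 left 456, 524, 880 or 729 calls, and 326 of the 1670 genes were called in each of these fits.

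**Figure D1:**
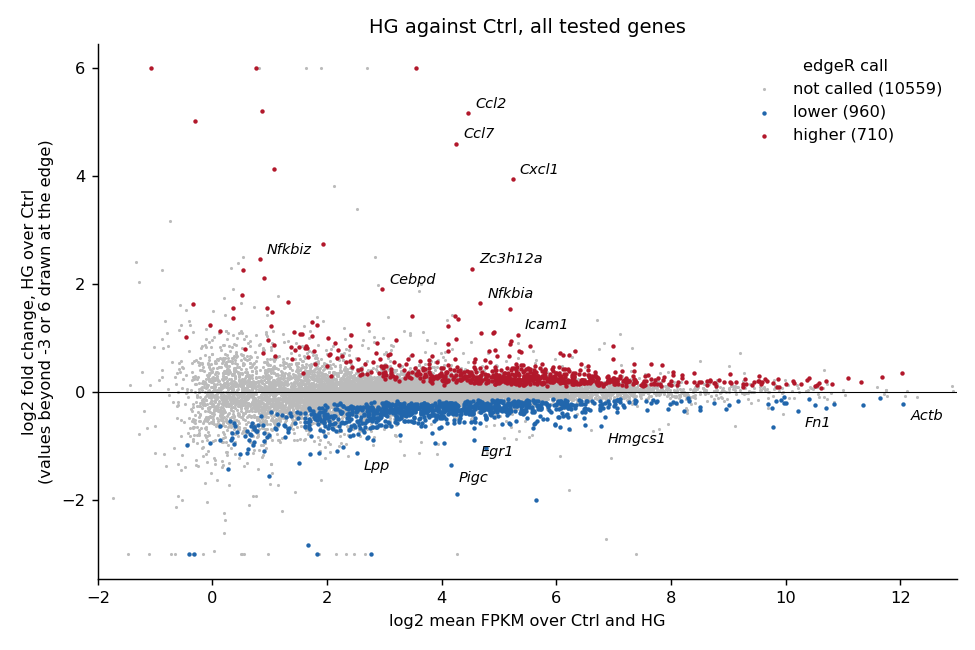
Log2 fold change of HG over Ctrl (vertical axis) against log2 mean FPKM (horizontal axis) for the 12229 tested genes, coloured by edgeR call. Ccl2, Ccl7 and Cxcl1 stand above a log2 of 3, while most of the 960 lower genes are smaller in size.

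Monocyte and neutrophil chemokines rose most. Ccl2, which draws monocytes, was at 1.22 and 1.11 FPKM in Ctrl and at 43.0 and 42.8 in HG. Ccl7, which shares receptors with Ccl2, went from 1.55 and 1.41 to 36.4 and 36.6 FPKM. Cxcl1, a neutrophil chemokine, went from 5.36 and 3.74 to 70.4 and 71.3 FPKM. For all of these the HG libraries agreed closely and lay far above both Ctrl libraries. Cxcl16, made as a membrane-bound ligand, was at 6.51 and 5.57 FPKM in Ctrl and 16.1 and 16.7 in HG, a log2 difference of 1.42 ± 0.13 (SE, n = 2 per group). Of 22 listed chemokine genes, 5 were tested, 4 rose and 0 fell, with a median log2 of 3.94 against 0.00 over all tested genes. Each of the 4 kept its call when Ctrl 1, Ctrl 2, HG 1 or HG 2 was left out. Cxcl12, a homeostatic chemokine, was the tested member without a call, at 61.3 and 61.9 FPKM in Ctrl and 64.0 and 66.2 in HG. Chemokines under the filter had low counts, some of them mainly in HG. Cxcl17 went the other way, with 13 and 19 counts in Ctrl and 0 and 0 in HG. Cxcl10, an interferon-linked chemokine, had 0 and 18 counts in Ctrl and 45 and 79 in HG. Cx3cl1 had 16 and 4 counts in Ctrl and 66 and 116 in HG. Ccl5 and Ccl20 had 0 counts in all 4 libraries. The wider cytokine list had 2 rises among 8 tested genes, Csf1 and Ctf1, and 0 falls, with 1 rise in each fit without a Ctrl or HG library. Csf1, the macrophage growth factor, went from 53.1 and 56.1 to 76.9 and 77.3 FPKM (log2 0.48 ± 0.04). Il6 was not called, at 3.39 and 3.30 FPKM in Ctrl and 4.59 and 3.97 in HG, and Tnf and Il1b had at most 2 counts in any of the 4 libraries.

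The list of NF-kB feedback inhibitors rose as a group, though it also counts Nfkbiz and Tnfaip2, which are not plain inhibitors. Of 14 tested members 7 were called higher and 0 lower. All 14 had a positive log2 difference (median 0.46), against 6197 of all 12229 tested genes. Zc3h12a encodes an RNase that degrades inflammatory mRNAs, and was at 7.58 and 7.95 FPKM in Ctrl and at 38.6 and 38.5 in HG (log2 2.29 ± 0.09). Nfkbia, the gene of IkB-alpha, went from 12.0 and 12.3 to 39.8 and 37.9 FPKM (1.66 ± 0.08). Nfkbiz, a nuclear IkB protein that assists selected targets, went from 0.502 and 0.567 to 3.06 and 2.94 FPKM (2.47 ± 0.25). In none of these did the groups overlap. Nfkbiz was under 1 FPKM in both Ctrl libraries, so it was tested, and counted among the 7, only through the glucose-treated libraries. Tnip1, a partner of the A20 deubiquitinase, went from 23.4 and 24.5 to 38.4 and 39.4 FPKM (0.68 ± 0.05). The gene of A20 itself, Tnfaip3, was at 4.14 and 4.77 FPKM in Ctrl and 6.78 and 5.53 in HG and was not called (0.45 ± 0.20). Nfkbie (0.92 ± 0.18), Tnfaip2 (0.51 ± 0.07) and Nfkbib (0.46 ± 0.08) were called as well. Without Ctrl 1, HG 1 or HG 2 the list had 5 called members instead of 7.

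Several NF-kB subunit genes were also higher. Relb, the subunit of the non-canonical branch, went from 3.13 and 3.72 to 7.75 and 6.69 FPKM (log2 1.06 ± 0.15). Nfkb2, which encodes its p100 precursor partner, went from 25.3 and 25.7 to 35.7 and 35.7 FPKM (0.47 ± 0.04). Nfkb1 (0.42 ± 0.06) and Rela (0.21 ± 0.04) rose less, and Map3k14, the NIK kinase that starts the non-canonical branch, fell (-0.39). In all 4 of 15 subunit and kinase genes rose and 1 fell, with 2 rises left without Ctrl 1 and 2 without Ctrl 2. Nfkb2 was the 1 member called without each of the 4 libraries in turn. Of 22 signal adaptors and receptors upstream, 2 were called higher, Il4r and Traf2, and 0 lower, a share of 9.09% against 5.81% higher in the background, and 0 rises were left without Ctrl 1, Ctrl 2 or HG 2. Tlr4, the receptor for bacterial lipopolysaccharide, was at 3.48 and 4.30 FPKM in Ctrl and 4.34 and 4.0 in HG and was not called.

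**Figure D2:**
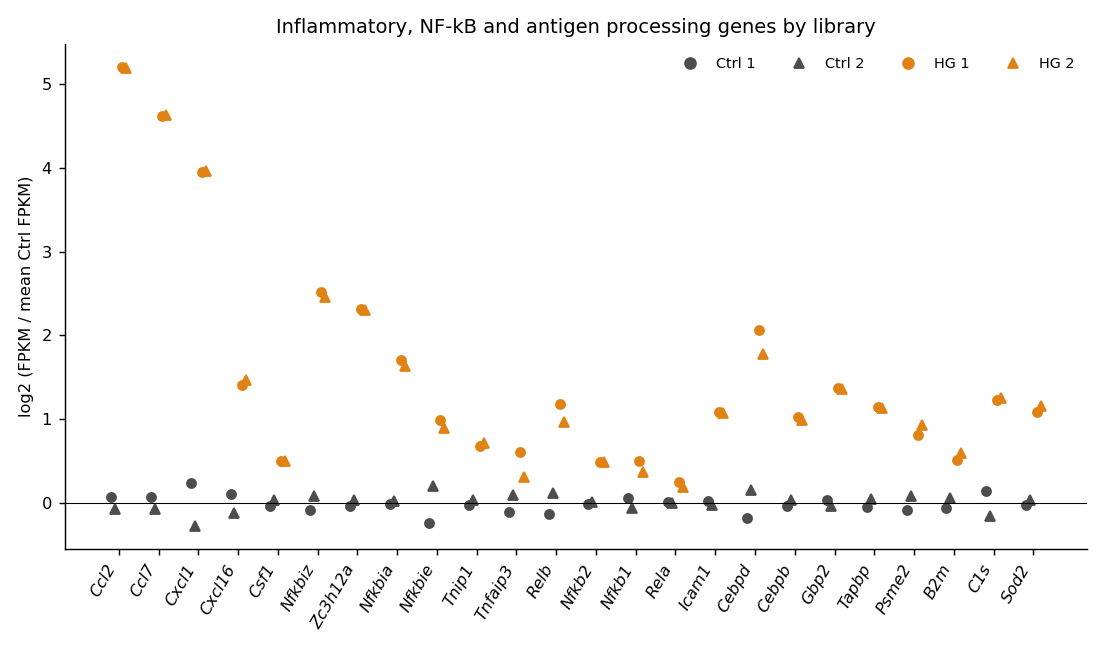
Log2 ratio of each library's FPKM to the mean Ctrl FPKM (vertical axis) for inflammatory, NF-kB, antigen processing and defence genes (horizontal axis), with Ctrl in grey, HG in orange, circles for replicate 1 and triangles for replicate 2. The HG points of each gene sit above both Ctrl points, from about 5 for Ccl2 down to 0.21 for Rela in the fitted values, and Tnfaip3 was not called.

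Promoter windows of these genes were read to show where letters of the NF-kB consensus lie. RefSeq windows (build GRCr8) run from 250 bases before to 50 after each gene's start, and the motif GGGANTTTC was searched on both strands. It occurs in 276 of 24206 windows (1.14%). Among genes called higher it occurs in 17 of the 533 with a window (3.19%), among those called lower in 11 of 684 (1.61%), and among genes called at least 2-fold higher in 5 of 25 (20%). The 5 include Nfkbiz, which was tested only through the glucose-treated libraries. The stretches below surround each match, written along the gene's strand, with the motif or its reverse complement in capitals. They were chosen because their genes rose in HG and hold a match. Nfkb1, Tap1 and Ifngr2 also rose and hold a match, but are not printed. The letters occur as well in the windows of Tnfaip3 and Il6, which were not called, and of Mvk, a cholesterol synthesis gene that fell. The windows of Icam1, Zc3h12a, Tnip1, Gbp2, Cxcl16, Nfkbie, Psme2, Sod2 and Ccl7, which also rose, hold none, and for Ccl2, Relb, Csf1 and Cebpd no window was used here.
Cxcl1, chr14:17479357-17479496, minus strand: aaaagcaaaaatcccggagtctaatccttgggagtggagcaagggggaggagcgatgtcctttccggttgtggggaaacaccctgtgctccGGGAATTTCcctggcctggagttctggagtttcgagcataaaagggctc
Nfkbia, chr6:78597054-78597227, minus strand: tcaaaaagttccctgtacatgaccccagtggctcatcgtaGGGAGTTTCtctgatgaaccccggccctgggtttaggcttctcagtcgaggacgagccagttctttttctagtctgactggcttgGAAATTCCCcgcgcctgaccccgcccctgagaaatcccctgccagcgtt
Nfkbiz, chr11:58251617-58251756, plus strand: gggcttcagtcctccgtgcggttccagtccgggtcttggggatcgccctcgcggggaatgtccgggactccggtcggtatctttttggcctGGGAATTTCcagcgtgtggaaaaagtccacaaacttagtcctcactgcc
Nfkb2, chr1:255108141-255108382, plus strand: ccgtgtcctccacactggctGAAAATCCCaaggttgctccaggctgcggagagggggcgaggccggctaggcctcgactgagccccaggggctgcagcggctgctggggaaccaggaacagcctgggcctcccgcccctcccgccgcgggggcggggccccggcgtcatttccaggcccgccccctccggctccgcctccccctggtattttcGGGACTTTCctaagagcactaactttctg
Tapbp, chr20:4967890-4968029, minus strand: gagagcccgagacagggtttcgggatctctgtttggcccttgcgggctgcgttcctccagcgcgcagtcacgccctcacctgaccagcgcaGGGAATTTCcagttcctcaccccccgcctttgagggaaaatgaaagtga
B2m, chr3:129549103-129549242, plus strand: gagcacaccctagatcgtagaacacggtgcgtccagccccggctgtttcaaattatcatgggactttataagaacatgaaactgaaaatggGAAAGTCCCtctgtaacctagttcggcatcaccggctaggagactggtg
Nfkbia and Nfkb2 hold a pair of matches each, and the others 1. A match is a run of letters, and no binding was measured here.

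Some genes of class I peptide loading rose in HG, as did Psmb10 of the immune proteasome. Tapbp, the gene of tapasin, which bridges the peptide transporter and class I, was at 18.1 and 19.3 FPKM in Ctrl and at 41.4 and 41.1 in HG (log2 1.12 ± 0.05). B2m, the light chain of class I, went from 128 and 139 to 190 and 202 FPKM (0.53 ± 0.05). Psmb10, a catalytic subunit of the immunoproteasome, went from 22.9 and 27.7 to 47.3 and 48.3 FPKM (0.90 ± 0.10). Both HG libraries lay above both Ctrl libraries in each. Psme2, a subunit of the proteasome activator PA28, went from 30.9 and 34.9 to 57.6 and 62.9 FPKM (0.85 ± 0.07). The GTPase gene Gbp2, induced by interferon, went from 11.1 and 10.6 to 28.2 and 27.9 FPKM (1.35 ± 0.05). Of 27 interferon-linked and antigen processing genes 11 rose and 0 fell (median log2 0.31), against 5.81% higher in the background. Psmb10, Psme2, Tapbp, B2m, Gbp2 and Xdh were called without each of the 4 libraries in turn, and the other 5 were not (Parp14, Irf1, Psme1, Tap1 and Irf8). The remaining immune subunit genes were low: Psmb9 was at 1.74 and 1.61 FPKM in Ctrl and 3.41 and 3.18 in HG (0.96 ± 0.37), and Psmb8 at 0.724 and 1.14 against 1.60 and 1.34 (0.64 ± 0.27), and neither was called. NF-kB motif letters occur in 4 of the 21 windows found for this list (19%).

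Further genes of the same systems were chosen after their values were seen. Ifitm3, an antiviral membrane protein, went from 91.6 and 87.5 to 160 and 170 FPKM (log2 0.86 ± 0.06), and Ifngr2, a chain of the interferon gamma receptor, from 10.4 and 9.18 to 15.4 and 14.4 (0.59 ± 0.08). Tapbpl, a relative of tapasin that also edits peptides, went from 10.5 and 11.2 to 16.5 and 16.9 FPKM (0.60 ± 0.08). The class I heavy chain gene RT1-A1 was at 1.55 and 1.80 FPKM in Ctrl and 3.52 and 3.84 in HG. Heavy chain genes are near-identical copies of each other, so the level of any 1 of them is uncertain. Nlrp3, a sensor of the inflammasome, went from 2.06 and 2.27 to 4.0 and 5.03 FPKM (1.04 ± 0.17). The calls of Tapbpl, RT1-A1 and Nlrp3 were lost in at least 1 fit without a library, with edgeR quasi-likelihood adjusted p up to 0.0525, 0.0568 and 0.0798. Hsd11b1, which regenerates active glucocorticoid, went from 0.936 and 0.995 to 2.73 and 3.03 FPKM (1.55 ± 0.14), and Angpt1, a vascular growth factor, from 13 and 12.3 to 21.7 and 21.9 (0.77 ± 0.06). With both Ctrl values under 1 FPKM, Hsd11b1 was tested only through the glucose-treated libraries.

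Adhesion, complement and CEBP genes followed. Icam1, the leukocyte adhesion molecule, went from 26.2 and 25.2 to 54.6 and 54.3 FPKM (log2 1.07 ± 0.04), while Vcam1 stayed under the filter at 0.481 and 0.523 FPKM in Ctrl and 0.704 and 0.492 in HG. Cd47, the signal against engulfment, rose from 19.4 and 18.4 to 30.2 and 26.6 FPKM (0.57 ± 0.07). Of 10 adhesion genes 3 rose and 2 fell, and neither fall was called in every fit without a library. Cebpd and Cebpb encode factors of the acute-phase response. Cebpd went from 2.85 and 3.60 to 13.5 and 11.1 FPKM (1.91 ± 0.19), and Cebpb from 12.3 and 12.9 to 25.6 and 24.9 (0.99 ± 0.08). Of 18 tested interleukin-6 family and CEBP genes 4 rose and 1 fell, with a median log2 of 0.004. The proteases that open the classical complement pathway rose: C1s went from 11.3 and 9.14 to 23.9 and 24.4 FPKM (1.22 ± 0.11) and C1r from 77.4 and 78.2 to 109 and 113 (0.49 ± 0.03). The complement genes C3, Serping1, C4a and C2 were under the filter. In Ctrl and HG, C3 and Serping1 had 0 counts, C4a at most 6 and C2 17 to 44. Immediate-early factors were mixed, with 3 higher and 2 lower of 27. Junb (0.52 ± 0.06), Jund (0.42 ± 0.05) and Ier3 (0.94 ± 0.08) rose. Egr1, a growth factor-induced transcription factor, fell from 29.5 and 31.0 to 16.5 and 17.0 FPKM (-0.87 ± 0.04), with no overlap of the groups. The phosphatase genes Dusp1 and Dusp6, which switch off MAP kinases, went opposite ways (0.67 ± 0.05 and -0.32 ± 0.06), and Dusp6 lost its call in at least 1 fit without a library (adjusted p up to 0.118, same test). Edn1, the vasoconstrictor endothelin, went from 2.55 and 2.74 to 5.79 and 5.03 FPKM, a call also lost in such a fit (adjusted p up to 0.0999, same test).

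Cholesterol synthesis genes fell from the first steps of the pathway to the last. Of 21 tested members 16 fell and 0 rose, with a median log2 of -0.40 against 7.85% lower in the background. Of these, 13 were called without each of the 4 libraries in turn. At the entry, Hmgcs1, which makes HMG-CoA, went from 134 and 131 to 85.3 and 88.3 FPKM (-0.63 ± 0.04). In the isoprenoid steps Mvd, the decarboxylase, went from 75.1 and 76.7 to 55.3 and 56.5 FPKM (-0.46 ± 0.04) and the isomerase Idi1 from 28.8 and 31.3 to 20.3 and 21.0 (-0.56 ± 0.06). At the step that commits to sterols, Sqle, the squalene epoxidase, went from 105 and 101 to 74.5 and 76.6 FPKM (-0.47 ± 0.03). Among the last enzymes Hsd17b7, a sterol ketoreductase, went from 18.4 and 17.4 to 10.1 and 11.2 FPKM (-0.76 ± 0.06), and Sc5d, a sterol desaturase, from 22.7 and 23.1 to 18.0 and 17.3 (-0.39 ± 0.04). In every gene of this paragraph so far both HG libraries lay under both Ctrl libraries. The members without a call were Lss (-0.31 ± 0.09), Pmvk (-0.14 ± 0.06), Ebp (-0.07 ± 0.07), Tm7sf2 (-0.01 ± 0.10) and Ggps1 (0.15 ± 0.15). Of the 16 promoter windows found for the list, 13 (81.2%) hold the letters CCAAT on either strand, against 37.8% of all windows. None of the 16 holds TCACNCCAC, a form of the sterol regulatory element found in 1.12% of all windows, which says only that these letters are not in these windows.

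**Figure D3:**
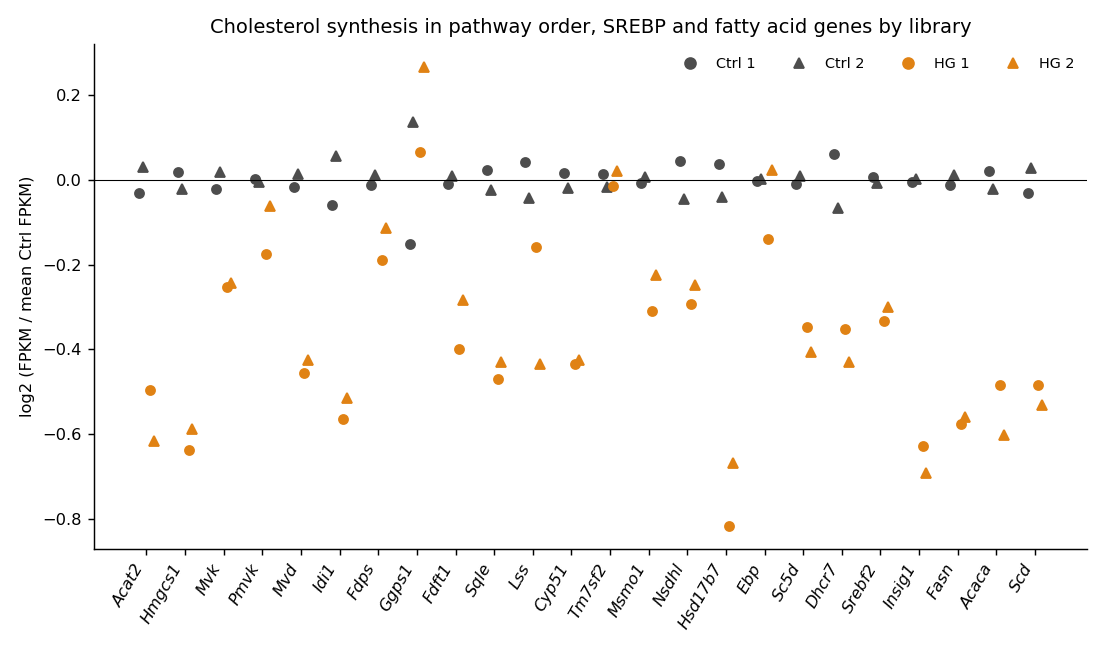
Log2 ratio of each library's FPKM to the mean Ctrl FPKM (vertical axis) for cholesterol synthesis genes in pathway order, followed by SREBP pathway and fatty acid genes (horizontal axis), with symbols as in the plot of inflammatory genes. The HG points lie below 0 for all but Ggps1, Tm7sf2 and Ebp, which were not called.

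Regulators and neighbouring lipid genes gave smaller counts. Srebf2, the SREBP that drives sterol genes, went from 43.5 and 43.1 to 34.4 and 35.2 FPKM (log2 -0.34 ± 0.03). Its target Insig1, which retains SREBP, fell by 0.68 ± 0.04 on the log2 scale. Srebf1 was not called (-0.10 ± 0.04), nor was Scap (-0.08 ± 0.06). In all 4 of 16 regulators fell and 1, Npc2, rose, but the Npc2 call was lost in each of the 4 fits without a library (adjusted p 0.0615 to 0.122, same test). Of 21 fatty acid and lipid synthesis genes 10 fell and 0 rose (median -0.29). Fasn, the fatty acid synthase, went from 74.2 and 75.5 to 50.2 and 50.8 FPKM (-0.59 ± 0.03). Acaca, which makes malonyl-CoA, went from 15.1 and 14.7 to 10.7 and 9.83 FPKM (-0.56 ± 0.05), and Scd, a desaturase, from 45.0 and 46.9 to 32.9 and 31.8 (-0.53 ± 0.05). The groups did not overlap in these. Acly, which supplies acetyl-CoA, fell by 0.31 ± 0.03. Without Ctrl 1 the list had 6 falls, and those 6 were called in each of the 4 fits. Elovl6, an elongase, was at 7.32 and 8.18 FPKM in Ctrl but at 11.1 and 0.0600 in HG, so no statement on it is possible.

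Glucose-responsive genes did not move one way. Txnip, the thioredoxin inhibitor, went from 14.8 and 17.5 to 34.8 and 35.3 FPKM (log2 1.10 ± 0.08). Arrdc3, a related arrestin-domain gene that is also known to be glucose-induced, went from 7.76 and 8.83 to 4.6 and 4.73 FPKM (-0.85 ± 0.12). It lost its call in at least 1 fit without a library (adjusted p up to 0.0543, same test). Angptl4, a lipase inhibitor, was low and went from 0.414 and 0.342 to 1.13 and 1.26 FPKM (1.63 ± 0.27), and its call was lost in the same way. Under 1 FPKM in both Ctrl libraries, Angptl4 was tested only through the glucose-treated libraries. In all 3 of 10 MondoA and ChREBP genes rose and 3 fell, with 1 and 1 left without Ctrl 2. None of 7 glucose transporters passed the edgeR test, with 0 at an unadjusted p under 0.05 and 0 called by DESeq2 or limma, and Slc2a1 was at 2.39 and 2.57 FPKM in Ctrl and 3.06 and 2.99 in HG. Of 15 osmotic and polyol genes 3 rose and 2 fell. Akr1b1, the aldose reductase, went from 284 and 303 to 390 and 377 FPKM (0.37 ± 0.04), and was the 1 member called in all of the 4 fits. Nfat5, the master factor of the osmotic response, was at 13.7 and 12.8 FPKM in Ctrl and 13.1 and 12.8 in HG. Slc6a6, the taurine transporter and a known target of it, fell (-0.23 ± 0.04), a call lost in at least 1 fit without a library (adjusted p up to 0.0925, same test). Of 30 glycolysis and pyruvate genes 5 fell and 1 rose. Pfkm, the muscle phosphofructokinase, went from 78.1 and 79.5 to 59.9 and 58.6 FPKM (-0.43 ± 0.04). Ldha, the lactate dehydrogenase, was the rise (0.14 ± 0.02), and without Ctrl 2 only 1 fall was left, that of Pfkm. Of 25 insulin and IGF genes 5 fell, Insr, Igf1r, Igf2r, Irs2 and Igfbp4, and 2 rose, Igfbp7 and Ddit4, with 1 fall and 1 rise left without Ctrl 1.

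Part of the stress lists rose. Of 23 genes of the amino acid stress response driven by ATF4, 12 rose and 1 fell (median log2 0.22). Asns, the asparagine synthetase, went from 39.8 and 40.4 to 52.5 and 53.1 FPKM (0.38 ± 0.03). Psat1, of serine synthesis, went from 71.4 and 68.7 to 91.7 and 90.6 FPKM (0.36 ± 0.04), and Nupr1, a stress-induced nuclear protein, from 57.4 and 55.6 to 92.8 and 91.1 (0.68 ± 0.05). Trib3 rose (0.27 ± 0.06) but was called in none of the 4 fits without a library (adjusted p 0.0984 to 0.175, same test), while Ddit3, the gene of CHOP, was at 43.3 and 44.5 FPKM in Ctrl and 49.4 and 49.3 in HG and was not called. Without Ctrl 2 the list had 6 rises, and 5 were called in all of the 4 fits. Of 26 endoplasmic reticulum chaperone genes 7 rose and 1 fell, of which P4hb (0.25 ± 0.02) and Manf (0.42 ± 0.06) were called in each of the 4 fits, and without Ctrl 1 those were the 2 rises left. Among superoxide and peroxide genes 9 of 20 rose and 2 fell. Sod2, the mitochondrial superoxide dismutase and an NF-kB target, went from 18.4 and 19.2 to 39.9 and 41.9 FPKM (1.11 ± 0.05). Prdx5 (0.32 ± 0.03) and Gpx8 (0.39 ± 0.04) rose less, and Duox1, an oxidase that makes hydrogen peroxide, fell (-0.54 ± 0.06). Without Ctrl 1 the list had 4 rises.

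Cell division genes were lower in HG. Mki67, a marker of cycling cells, went from 63.8 and 63.7 to 46.5 and 45.2 FPKM (log2 -0.49 ± 0.03), and Cenpf, a kinetochore protein, from 22.0 and 21.2 to 16.4 and 16.8 (-0.40 ± 0.04). Top2a, the topoisomerase of mitotic chromosomes, went from 77.7 and 77.2 to 59.8 and 60.6 FPKM (-0.38 ± 0.05). Both HG libraries were below both Ctrl libraries for 34 of the 40 mitosis genes, against 3666 of all 12229 tested genes. Of the 40, 22 fell by the test and 0 rose (median -0.22). Of 42 DNA replication genes 10 fell and 0 rose (median -0.13). Uhrf1, which guides maintenance methylation, went from 59.6 and 61.4 to 43.9 and 46.6 FPKM (-0.44 ± 0.04), and Mcm5, a helicase subunit, from 72.9 and 75.1 to 67.7 and 67.6 (-0.15 ± 0.03). Without Ctrl 1 the mitosis list had 9 falls and the replication list 4. Mki67, Cenpf and Uhrf1 were called in each fit that left out a Ctrl or HG library, and Top2a and Mcm5 were not. Among cyclins and CDK inhibitors 2 of 22 fell and 1 rose, but none of these calls held in any such fit.

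Part of the actin cytoskeleton list fell. Of 29 genes 14 fell and 1 rose (median log2 -0.17). Flnc, a muscle filamin that crosslinks actin, went from 109 and 109 to 73.5 and 71.5 FPKM (-0.60 ± 0.03). Flna, its widespread relative, went from 543 and 549 to 456 and 440 FPKM (-0.30 ± 0.02), and Actb, cytoplasmic actin, from 4541 and 4529 to 4041 and 3879 (-0.21 ± 0.02). Vcl, which links actin to adhesions, fell by 0.30 ± 0.04. The factor gene Srf was not called (-0.12 ± 0.06). Without Ctrl 2 the list had 8 falls. Of 8 smooth muscle markers 6 fell, among them Acta2 and Tagln, and none of these falls was called in every fit without a library. Myh11, smooth muscle myosin, was low and went from 1.16 and 1.20 to 3.87 and 3.72 FPKM (1.67 ± 0.17). The 8 summed to 3983 and 4170 FPKM in Ctrl and 3606 and 3485 in HG, and their part in the actin result was not tested. Among calcium handling genes Slc8a1, the sodium-calcium exchanger, went from 19.2 and 19.4 to 12.1 and 13 FPKM (-0.64 ± 0.05), and Itpr3, a release channel, from 18.9 and 18.1 to 14 and 13.7 (-0.44 ± 0.04). In all 3 of 17 fell and 0 rose. Of 14 myogenic factors 5 fell and 1 rose, with 1 and 1 left without Ctrl 1. Cdh15, a myoblast cadherin, fell (-0.26 ± 0.03), and the integrin gene Itga7 rose (0.33 ± 0.03).

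Matrix genes split. Fn1, fibronectin, went from 1300 and 1331 to 1061 and 1047 FPKM (log2 -0.34 ± 0.02), and Vcan, a large proteoglycan, from 34.3 and 34.9 to 26.3 and 24.4 (-0.46 ± 0.04). Tnc, tenascin C, a glycoprotein of injured tissue, went from 10.6 and 11.1 to 17.3 and 18.0 FPKM (0.68 ± 0.05). The groups did not overlap in any of them. Of 23 matrix glycoproteins 5 rose and 7 fell, and of 15 collagens 2 rose and 6 fell. Of 14 fibroblast markers 9 were tested, 5 fell (Pdgfrb, Ddr2, Postn and the collagens Col1a1 and Col3a1) and 0 rose. None of these falls was called in every fit without a library. The fibroblast markers summed to 5133 and 4877 FPKM in Ctrl and 4714 and 4708 in HG, with Fap and Tcf21 at 0. Of 11 epithelial markers 1 was tested, Krt8, which fell, a call left in 1 of the 4 fits, and they summed to 26.2 and 25.8 FPKM in Ctrl and 21.3 and 19.8 in HG, with Epcam and Krt19 at 0. The part of either marker set in the matrix and actin results was not tested. Without Ctrl 2 the glycoproteins had 3 falls, and without HG 1 or HG 2 the collagens had 3. Col5a1 went from 149 and 148 to 116 and 119 FPKM (-0.36 ± 0.02), and Col4a1, of basement membranes, from 193 and 193 to 228 and 230 (0.23 ± 0.02). Proteases and their inhibitors rose in 7 of 24 cases and fell in 2, with 4 rises left without Ctrl 2 or HG 2. Adamts1 (0.51 ± 0.04), Adamts4 (0.70 ± 0.08), which cleave proteoglycans, and Timp1 (0.39 ± 0.04), a metalloprotease inhibitor, rose, and the crosslinker Loxl2 fell (-0.47 ± 0.04). Both Fras1 and Frem1, partners in a basement membrane complex named after their values were seen, fell by 1.14 on the log2 scale (SE 0.09 and 0.07). Vegfa, the vascular growth factor, went from 28.7 and 29.0 to 19.3 and 17.6 FPKM, and its call was lost in at least 1 fit without a library (adjusted p up to 0.0987, same test).

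The 20 largest rises and falls held genes outside these lists. Pigc, an enzyme of the first step of GPI anchor synthesis, went from 26.2 and 25.1 to 9.88 and 10.4 FPKM (log2 -1.35 ± 0.07). The other called GPI anchor genes, Pigs, Dpm2 and Pigx, rose, with 0 rises left without Ctrl 1 or Ctrl 2, and 22 of 26 were not called. Agfg2 went from 22.7 and 20.6 to 11.5 and 11.4 FPKM (-0.94 ± 0.06), and Prima1, which anchors acetylcholinesterase, from 6.36 and 5.90 to 3.14 and 2.73 (-1.08 ± 0.12). Fgfr1op, a centrosomal gene and not an FGF receptor, went from 6.05 and 6.31 to 13.4 and 11.1 FPKM (0.97 ± 0.10). Hiatl3 had 0 counts in both HG libraries and 7.18 and 6.99 FPKM in Ctrl. Ano6 was called lower, but its Ctrl libraries stood at 13.9 and 24.6 FPKM against 9.85 and 10.6 in HG, and the call was lost in at least 1 fit without a library (adjusted p up to 0.157, same test).

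Calls followed gene length. Length here is the one implied by the deposited counts and FPKM. Of the 2447 shortest genes (up to 1166 bases) 6.38% were called higher and 0.940% lower, and of the 2442 longest (from 4010 bases) 2.83% were called higher and 22.2% lower. Genes called higher had a median length of 1891 bases and genes called lower 4453. The median log2 difference of these longest genes was between -0.10 and -0.12 in all 4 pairs of an HG with a Ctrl library, against 0.02 between the HG libraries and 0.01 between the Ctrl libraries. With a length-dependent offset in the edgeR fit, an alternative chosen after seeing the data, 521 genes were called higher and 563 lower, 956 of them among the 1670.

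**Figure D4:**
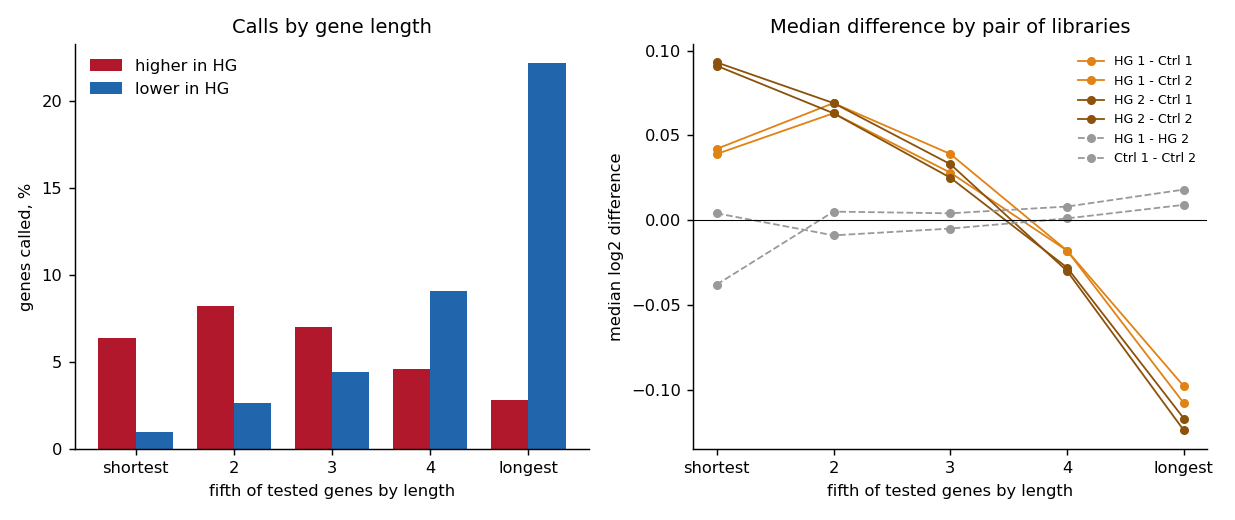
Left, percentage of genes called higher or lower (vertical axis) in 5 equal bins of tested genes by length (horizontal axis). Right, median log2 difference in each bin for each HG and Ctrl pair (solid) and for replicates (dashed): the HG pairs fall from above 0 to about -0.1 in the longest bin, and the replicate pairs stay within 0.04 of 0.

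Several lists changed with that offset and others did not. The same 4 chemokines and 7 members of the feedback inhibitor list rose with it, and the same 16 cholesterol synthesis and 10 fatty acid synthesis genes fell. DNA replication had 10 falls in both fits, of which 8 were shared. The actin list had 15 falls instead of 14, and mitosis 16 instead of 22. Of 25 chromatin regulators, a list of acetyltransferases and long regulators with a median length of 7753 bases, 13 fell without the offset and 2 with it. Fewer fell as well when Ctrl 1 was left out. Because long genes were put in this list by choice, its change with the offset cannot speak for chromatin genes as a class. Ep300, an acetyltransferase of the list, went from 6.56 and 7.21 to 3.60 and 4.46 FPKM (log2 -0.79 ± 0.13), a call lost in at least 1 fit without a library. Smarca2, a remodelling ATPase, went from 23.5 and 22.2 to 16.0 and 16.6 FPKM (-0.50 ± 0.05). Of 25 Notch and Wnt genes 9 fell without and 2 with it, and 2 when Ctrl 1 or Ctrl 2 was left out, and collagens had 6 and 2 falls. Short genes behaved in the opposite way. Of 64 cytosolic ribosomal protein genes, with a median length of 724 bases and many near-identical copies, 17 rose without and 7 with the offset, and 4 without Ctrl 1 or Ctrl 2, and Rpl23a went from 1205 and 1246 to 1514 and 1463 FPKM. Proteasome subunits had 8 rises of 31 without and 2 with it and 1 without Ctrl 1 or Ctrl 2, superoxide and peroxide genes 9 and 4, and nuclear oxidative phosphorylation genes 4 of 52 and 0. What lies behind the relation to length was not tested.

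**Figure D5:**
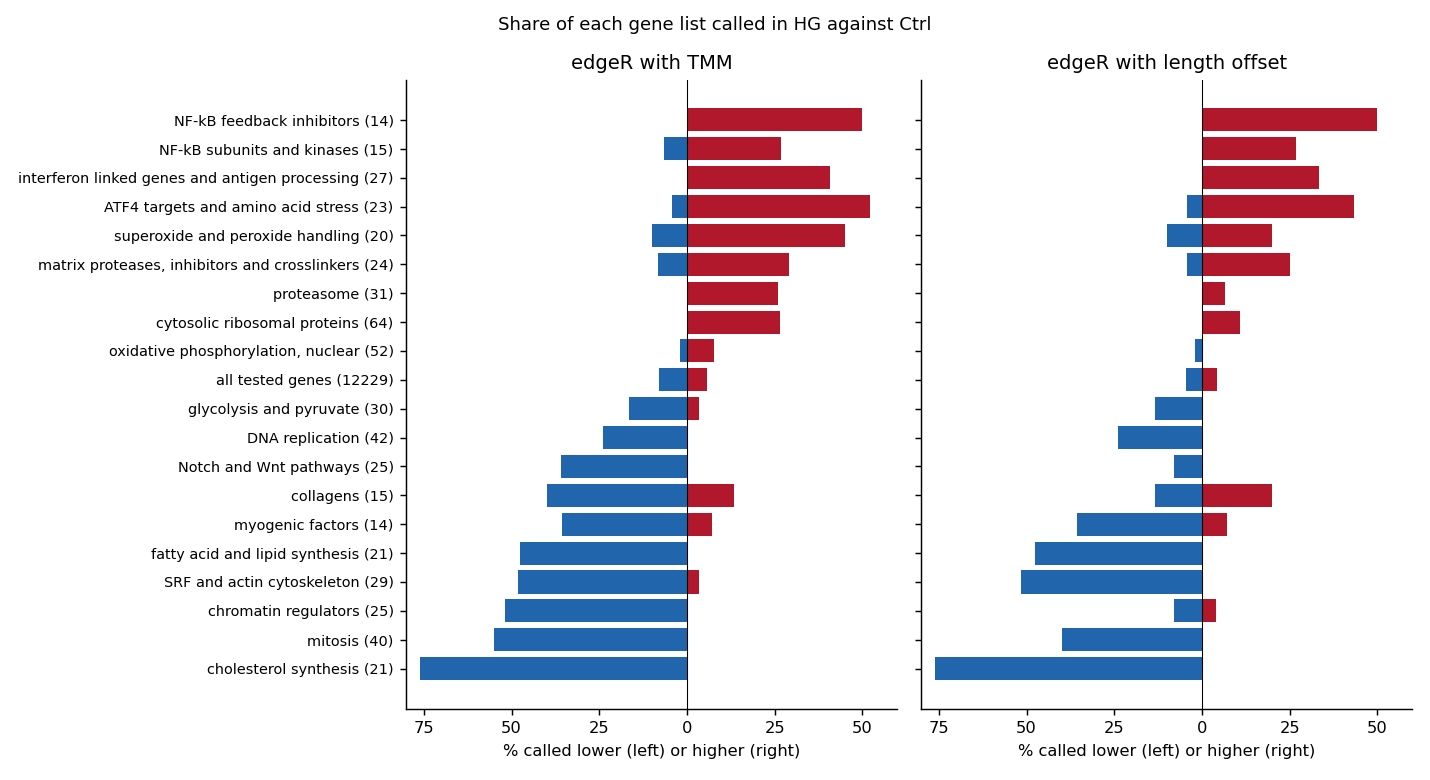
Percentage of tested members called lower (left of 0) or higher (right of 0) in HG for each gene list, with the number tested in brackets, without (left panel) and with (right panel) the length offset. Cholesterol synthesis, the actin list and NF-kB feedback inhibitors look alike in both panels, and the falls of chromatin regulators and collagens and the rises of ribosomal proteins are fewer on the right. The chromatin list holds long genes by choice.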

How the data were processed

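Per the submitters' processing notes, the tools were fastp, HISAT2 and StringTie, and the build named is GRCh38, while the gene identifiers in the table are rat. The authors deposited counts per gene, not scaled between libraries, and FPKM values scaled to gene length and library size, where 0.0001 stands for a count of 0. How many counts 1 fragment gives is not known. RNA was extracted with TRIzol, per the labels' protocols.

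Genes reaching 1 FPKM in 2 or more of 6 libraries were fitted to the deposited counts in edgeR 4.0.16 (R 4.3.3) with TMM scaling and 1 mean per group, and adjusted over all 12229 genes (3 residual degrees of freedom, common dispersion 0.0298, median standard error 0.0869 on the log2 scale). Values after ± are standard errors derived from the quasi-likelihood F values. DESeq2 1.42.0, limma 3.58.1, other scalings and filters, a replicate block, left-out libraries and a length offset were alternatives. The pipeline was tested on simulated data.

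The design named the 20 largest rises and falls (at least 5 FPKM in Ctrl or HG, groups not overlapping, 1 row per symbol), the called members of each list with the smallest p, all members of 7 short lists and the FGF receptor genes. The members and lists were chosen with earlier results of these data known. Some named members were picked as examples of their lists outside that rule, after their values were seen, and some genes that the rule names are not reported here. Promoter windows are from RefSeq (GRCr8). Of 11983 tested symbols 7941 had a window.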

Additional observations from a re-analysis of the deposited data

How the results depend on the processing

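Of 258 genes picked for naming and called, 125 kept the call under each alternative that tested them and 133 lost it under at least 1. Genes removed by the stricter filter of 5 FPKM were not tested there and were not counted as lost. With the length offset Wnk1 (log2 0.0583) and Utp20 (0.0072) changed sign and were not called. The 1670 calls (710 higher, 960 lower) became 2616 (1109 and 1507) with DESeq2 and 1084 (521 and 563) with the length offset, where fewer falls were called. Limma gave 506 lower genes on log2(FPKM + 1) and 519 on log2(FPKM + 0.1), and on the former 38 at least 2-fold differences instead of 66. These were 108 with no filter on low values and 34 with a filter of 5 FPKM, as more or fewer low genes were tested. Leaving out 1 of the 6 libraries gave 456 to 1302 calls, 190 to 557 higher and 266 to 745 lower, with 54 to 83 at least 2-fold. Of the 66, 28 were called without each Ctrl and HG library in turn and 65 with the length offset. With a replicate block 1153 genes were called, 470 higher and 683 lower, and 28 of the 258 named calls were lost. The deviations of same-numbered libraries had a correlation of 0.233 between Ctrl and HG, 0.159 between Ctrl and siFGFR1+HG and 0.125 between HG and siFGFR1+HG, and with 2 numbers per group neither these nor the labels establish a pairing. Scaling by library totals alone gave 872 higher and 869 lower. A fit of only the Ctrl and HG libraries called 1280 genes, 548 higher and 732 lower, and 20 of the 258 named calls were lost. With 2 libraries per group, small differences of low genes could not be detected, and intervals cover these libraries only.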
